A study of Oryza sativa with 26 samples.

Results

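The lamina joint of the second leaf counted back from the last was compared between stage 6, when the labels describe it as senescent and dehydrated, and stage 5, when the leaf angle was increasing. The comparison used 4 of the 26 arrays in the series, 2 at each stage, which were chosen by their labelled joint and stage and not by any measured value. The lamina joint of a grass is the flexible zone where the leaf blade meets the sheath. Uneven growth of its cells bends the blade outwards, and auxin, brassinosteroid and jasmonate are known to act on that growth in rice. In ageing grass leaves, chloroplast proteins are broken down and their nitrogen is moved out, while jasmonate, NAC transcription factors and proteases are known to take part. 

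All plants were Oryza sativa, japonica cultivar Zhonghua 11, grown in a greenhouse with no mutation, transgene or applied agent named in the labels. The joint of the second leaf, called the second joint here, was taken 65 days after sowing at stage 5 and 75 days after sowing at stage 6, and at 60 days at stage 4, when the leaf angle was 0. The last joint was taken at 70 and 80 days for stages 5 and 6, and the third joint at 60 and 70 days. A green piece of the third leaf beside its joint, cut at stage 4, served as the leaf control. Joints were cut by hand, so each sample is a mixture of cell types, and the labels used here give no time of day of harvest. The labels call the 2 arrays of a group biological replicates without naming separate plants, and the p-values therefore cover no more than the spread of the samples given, which may be technical.

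Joint tissue was recognisable on all 24 joint arrays. LG1, the liguleless gene that sets up the ligule and the joint, had log2 values of 7.52 to 9.89 in the joints against 6.03 and 5.84 in the leaf piece. LA, the LAZY1 gene of shoot gravitropism, lay between 9.53 and 12.11 in the joints and at 5.88 and 6.49 in the leaf. 1 of the 4 arrays stood apart: stage 5 replicate 1 had an upper quartile of 7.50, while the other arrays lay at 8.0 (stage 5 replicate 2), 7.94 and 8.02 (stage 6). Its correlation with the other stage 5 array across probe sets was 0.971, against 0.991 between the stage 6 arrays. Stage 5 replicate 2 correlated more closely with both stage 6 arrays (0.975 and 0.98) than with its own replicate, and replicate 1 correlated with them at 0.949 and 0.956. The Gapdh control read higher with its 3′ than with its 5′ probe set, by 1.92 and 1.81 at stage 5 and by 3.14 and 3.41 at stage 6, so that this measure, which depends on RNA integrity and labelling, moved with stage. Its part in the results was not tested beyond a fit with this difference as a covariate.

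Of 57258 probe sets tested with limma over all 26 arrays, 2250 (3.93%) passed, at a Benjamini-Hochberg adjusted p under 0.05 and at least a 2-fold difference. They comprised 1615 (2.82%) with higher values at stage 6 and 635 (1.11%) with lower values. Over 17905 genes with 1 probe set each, 1353 passed (7.56%), of which 960 (5.36%) were higher and 393 (2.19%) were lower, and the last 2 shares are the background for the gene counts that follow. In bulk tissue, fewer cells of a type and less RNA per cell cannot be told apart. The excess of rises over falls depended on scaling and on 1 array: it was 1240 against 1014 after quantile normalisation, 1024 against 1466 after centring each array on its upper quartile, 516 against 550 with the Gapdh covariate and 183 against 359 without stage 5 replicate 1. Centring on the upper quartile moved the median difference of all probe sets by -0.23 (log2). No call was left when only the 4 arrays were fitted with limma, although 7688 probe sets then had an unadjusted p under 0.05.

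**Figure D1:**
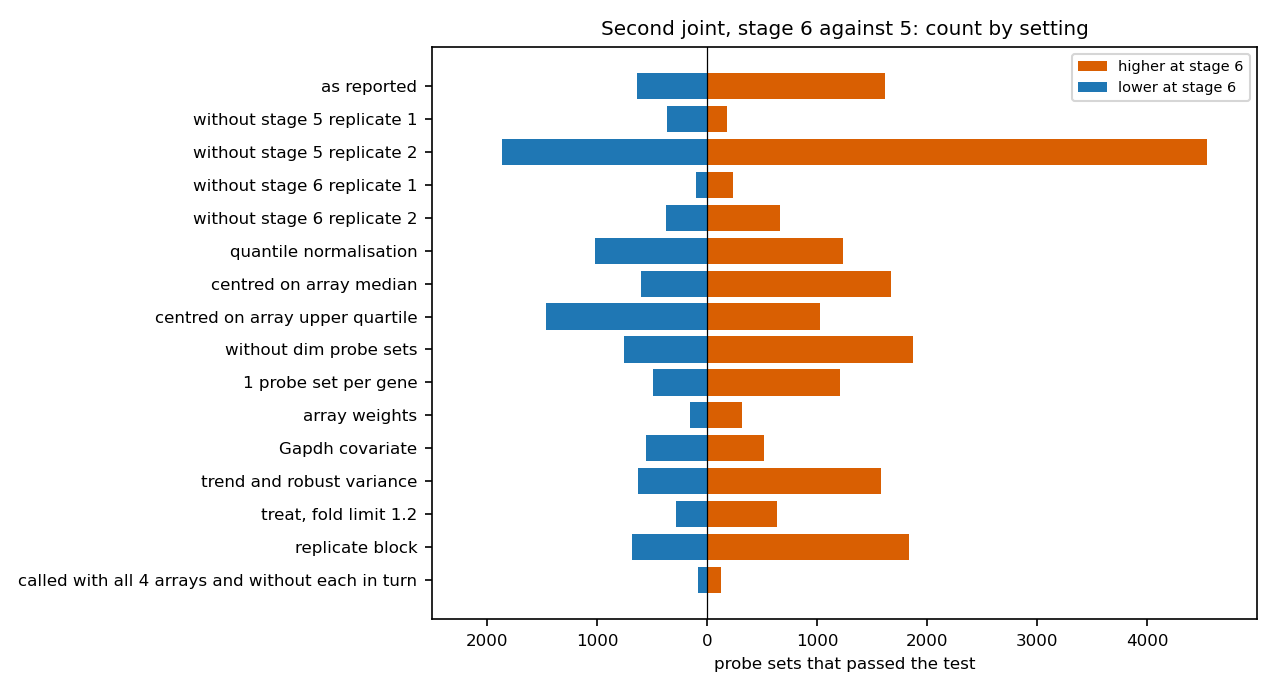
Number of probe sets that passed the test in the second joint, stage 6 against stage 5 (horizontal axis), under the reported fit and 15 others (rows); orange bars to the right are higher at stage 6 and blue bars to the left are lower. The reported 1615 rises and 635 falls become 183 and 359 without stage 5 replicate 1, and 126 and 81 for probe sets that passed in the reported fit and without each of the 4 arrays in turn.

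A smaller set of 207 probe sets (0.362%) passed with all 4 arrays and again without each of them in turn, 126 (0.22%) higher and 81 (0.141%) lower. This stricter rule was chosen after the data were seen. The set holds 18 genes with a descriptive name. The 10 that rose were HSP24.1, CPK9, HSF1, Pir7b, NAC010, MT1B, MRS2-A, STLP3, HSP81-1 and RIBA3. The 8 that fell were Pi21, CSLA1, IAA30, Cfi, PPT2, FIL1, IAA1 and MADS16. Most of the other named calls were lost when 1 array was left out. Of 92 named genes that passed, 31 passed without stage 5 replicate 1 and 78 without stage 5 replicate 2. Without stage 6 replicate 1, 21 passed, and without stage 6 replicate 2, 46 passed. None changed sign, but leaving out 1 array cannot reverse the sign where the stage 5 and stage 6 arrays do not overlap. The largest named rises and falls were chosen to have no overlap, so for them the unchanged sign is no test.

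**Figure D2:**
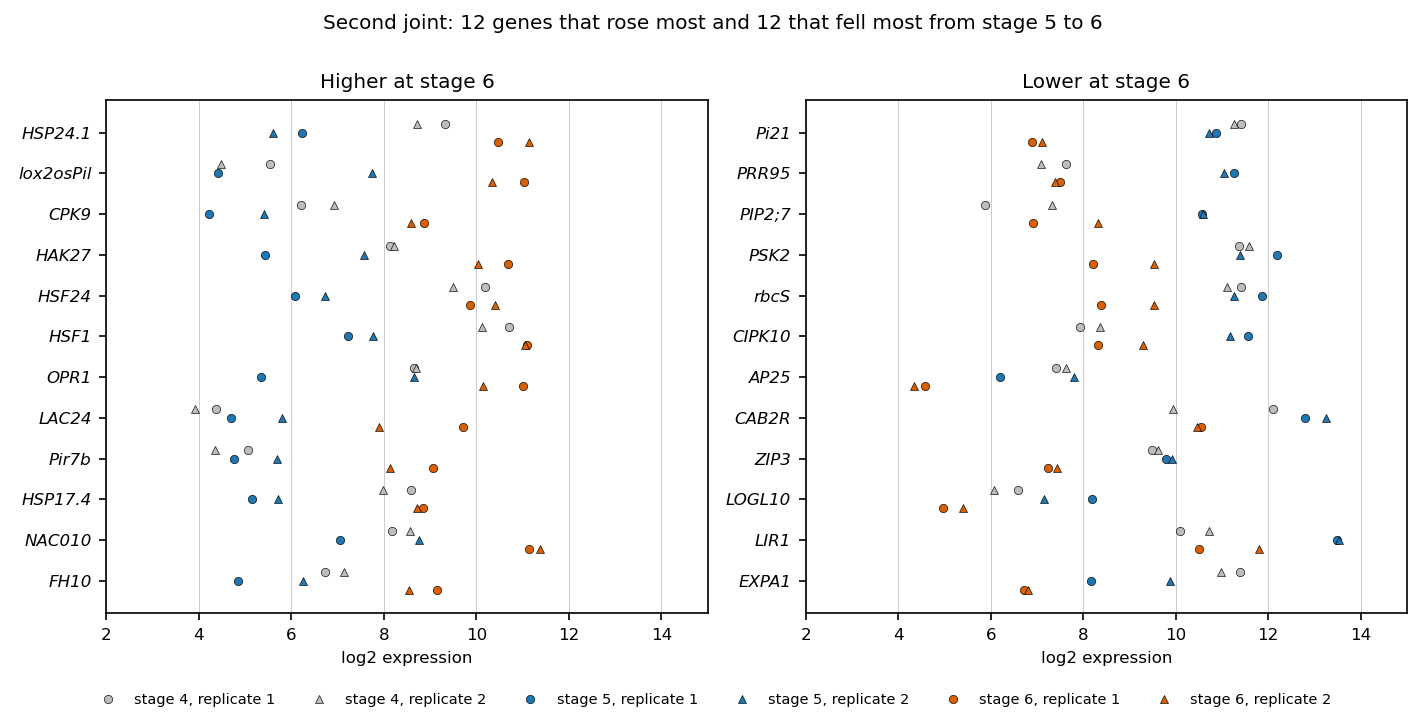
Log2 expression (horizontal axis) in the second joint for the 12 named genes that rose most (left) and the 12 that fell most (right) from stage 5 to 6; grey is stage 4, blue stage 5 and orange stage 6, with circles for replicate 1 and triangles for replicate 2. The genes were chosen to have no overlap between stage 5 and stage 6 arrays; for HSF1, HSF24, PRR95, PIP2;7 and LIR1 the stage 6 arrays lie near those of stage 4.

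Genes of the heat-shock response gave the largest named rise. Heat-shock proteins are chaperones that hold unfolding proteins, and heat-shock factors are the transcription factors that induce them. HSP24.1, a small heat-shock protein, read 6.23 and 5.60 on the 2 stage 5 arrays and 10.47 and 11.15 on the 2 stage 6 arrays. The groups lay far apart, and the difference of 4.90 (SE 0.623, n = 2 against 2, adjusted p = 0.000722) is a 29.8-fold rise. HSF1, a heat-shock factor, read 7.22 and 7.77 at stage 5 and 11.10 and 11.06 at stage 6, a difference of 3.58 (SE 0.537, adjusted p = 0.00189). HSP81-1, a chaperone of the HSP90 family, rose from 11.58 and 11.63 to 13.50 and 13.76, a difference of 2.02 (SE 0.271, adjusted p = 0.00112). The other probe set of HSP81-1 had the opposite sign, so that this value holds for the probe set used here only.

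Of 23 heat-shock protein genes measured, 4 rose, none fell and 19 did not pass, with a median difference of 0.18 against 0.0924 over all matched genes. The other members that rose were HSP17.4 (3.34) and HSP18.1 (1.56). Of 20 heat-shock factor genes, 4 rose and none fell, with a median of 0.33, and HSF24 (3.72, adjusted p = 0.0142), HSF2 (1.85) and HSF25 (1.83) joined HSF1. The other probe set of HSF2 had the opposite sign. Under upper-quartile centring the medians were -0.05 and 0.10. The counts of heat-shock proteins higher at stage 6 were 2 without stage 5 replicate 1, 5 without stage 5 replicate 2, 3 without stage 6 replicate 1 and 4 without stage 6 replicate 2. For heat-shock factors those counts were 1, 5, 1 and 1, and HSF24 no longer passed without stage 5 replicate 1 (adjusted p = 0.119), without stage 6 replicate 1 (0.0818) or without stage 6 replicate 2 (0.0915).

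Most of the heat-shock rise was set against low values at stage 5. At stage 4 of the second joint HSF1 had read 10.70 and 10.12 and HSP81-1 13.22 and 13.10, above both stage 5 arrays. From stage 4 to 5 HSF1 fell by 2.92 (adjusted p = 0.0113) and HSP81-1 fell by 1.55 (0.00911). From stage 4 to 6 the differences were 0.67 for HSF1 (0.687) and 0.47 for HSP81-1 (0.497), which did not pass. SWEET2b, of the SWEET family of sugar transporters, followed the same course: 9.14 and 8.29 at stage 4, 5.01 and 6.72 at stage 5, 8.96 and 8.36 at stage 6. MRS2-A, a magnesium transporter, read 9.64 and 9.28, then 6.71 and 7.0, then 9.46 and 9.36. MRS2-A rose by 2.56 (SE 0.37, adjusted p = 0.00163) after a fall at the step before, where its difference was -2.61 (0.00236). SWEET2b rose by 2.79 (0.0253), a call lost without stage 5 replicate 1 (1.94, 0.277), without stage 6 replicate 1 (2.49, 0.18) and without stage 6 replicate 2 (3.09, 0.0758).

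Some genes of the jasmonate list rose, while most did not pass. Lipoxygenases start the path from plastid lipids to jasmonate, and JAZ proteins are the repressors that jasmonate removes. The 12-oxophytodienoate reductase (OPR) family includes the enzyme that acts on an intermediate of the path. The lipoxygenase gene lox2osPil read 4.41 and 7.74 at stage 5 and 11.03 and 10.34 at stage 6. The groups did not overlap although the stage 5 arrays differed by more than 3 units, and the difference was 4.61 (SE 0.781, adjusted p = 0.00405). Without stage 5 replicate 1 the difference was 2.94 (0.0437), without stage 5 replicate 2 it was 6.27 (3.34e-05), and without stage 6 replicate 1 the call was lost at 4.27 (0.0601). LOX9, another lipoxygenase, read 6.68 and 8.37 against 10.76 and 10.06, a difference of 2.89 (SE 0.576, adjusted p = 0.00946) that did not pass without stage 5 replicate 1 (2.04, 0.133) or stage 6 replicate 1 (2.54, 0.11).

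Of 40 jasmonate genes measured, 6 rose, none fell and 34 did not pass, against 5.36% of all genes higher. The median of the list was 0.23, and it was -0.00 when arrays were centred on the upper quartile. The OPR family genes OPR1 (3.57), OPR4 (1.96) and OPR5 (1.55) and the repressor JAZ2 (1.67) made up the 6 with the 2 lipoxygenases. These values do not show whether OPR1, OPR4 and OPR5 act in jasmonate synthesis. OPR1 read 5.35 and 8.66 at stage 5 and 11.01 and 10.14 at stage 6, and without stage 5 replicate 1 its difference was 1.92 (0.449). JAZ2 was dim throughout, with 2.93 and 2.86 at stage 5 and 5.12 and 4.01 at stage 6. OPR7, the reductase of the OPDA step in rice jasmonate synthesis, had a difference of 0.13 and did not pass, and the receptor gene COI1 had -0.57. The count that passed was 1 without stage 5 replicate 1 and 0 without stage 6 replicate 1, was 4 without stage 6 replicate 2 and was 10, beside 1 that fell, without stage 5 replicate 2. It was 5 after quantile normalisation, 4 with upper-quartile centring and 2 with the Gapdh covariate.

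Defence and ageing-related genes were also among the rises. Pir7b, an esterase first described as induced in rice by bacteria, read 4.77 and 5.69 at stage 5 and 9.06 and 8.14 at stage 6, a difference of 3.37 (SE 0.379, adjusted p = 0.000333). NAC010, a NAC-family transcription factor, went from 7.06 and 8.77 to 11.14 and 11.37, a difference of 3.34 (SE 0.504, adjusted p = 0.00197). Both passed without any 1 of the 4 arrays, with differences of 2.91 to 3.83 and 2.48 to 4.20. MT1B, a metallothionein, one of the small cysteine-rich proteins that bind metals, read 5.95 and 6.74 against 9.47 and 9.56, a rise of 3.16 (SE 0.428, adjusted p = 0.00115). Pir7b, NAC010 and MT1B were lower at both earlier stages than at stage 6. At stage 4 they read 5.06 and 4.36, 8.17 and 8.56, and 5.98 and 6.90. Their differences from stage 4 to 6 were 3.89 (2.81e-05), 2.89 (0.00317) and 3.07 (0.000584).

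Of 8 NAC genes, 2 rose and 6 did not pass, with a median of 0.36 that stayed at 0.13 or above under the 3 scalings tried. NAC45 (2.04, adjusted p = 0.00934) was the other, a call lost without stage 5 replicate 1 (0.0914), without stage 6 replicate 1 (0.0712) and without stage 6 replicate 2 (0.0605). MT1B was the only one of 7 metallothionein genes to pass. The list's median was -0.44, and MT2C, another metallothionein, read 14.16 and 14.18 at stage 5 and 13.35 and 13.63 at stage 6 and did not pass (-0.68, adjusted p = 0.05). The chitinase gene Cht6, whose class of enzyme cuts the chitin of fungal walls, rose by 2.54 (0.0296) from 7.21 and 9.36 to 11.13 and 10.54, and was the only one of 18 chitinase and defence genes to pass. That call held without stage 5 replicate 2 (3.62, 0.00181) and was lost without stage 5 replicate 1 (1.47, 0.35), without stage 6 replicate 1 (2.25, 0.198) and without stage 6 replicate 2 (2.84, 0.0836). PBZ1, a pathogenesis-related gene, read 13.91 and 13.84 at stage 5 and 14.15 and 12.32 at stage 6, so that its stage 6 arrays lay on both sides of stage 5.

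Calcium signalling genes passed in both directions, at shares near those of all genes (5.36% higher and 2.19% lower). CPK9, a calcium-dependent protein kinase, read 4.22 and 5.40 at stage 5 and 8.86 and 8.59 at stage 6, a difference of 3.91 (SE 0.552, adjusted p = 0.00134) that passed without any 1 array. Of 78 calcium signalling genes, 4 rose (CPK9, CPK21, CIPK1 and CBL10), 3 fell (CIPK10, CML1 and CIPK7) and 71 did not pass, with a median of 0.22 that was -0.01 under upper-quartile centring. CIPK10, a kinase that works with calcineurin B-like calcium sensors, read 11.56 and 11.18 at stage 5 and 8.31 and 9.29 at stage 6 (-2.57, adjusted p = 0.0468), a call lost without stage 5 replicate 1 (-2.38, 0.254) and without either stage 6 array (-2.08, 0.287, and -3.06, 0.0926). Without stage 5 replicate 1 the counts were 1 higher and 0 lower, and without stage 5 replicate 2 they were 10 and 2. Among 33 ion transporter genes 2 rose: the potassium transporters HAK27 (3.86, adjusted p = 0.0161) and HAK1 (1.14, 0.0485). HAK27 read 5.44 and 7.57 at stage 5 and 10.69 and 10.04 at stage 6, and its call was lost without stage 5 replicate 1 (2.79, 0.198), without stage 6 replicate 1 (3.54, 0.136) and without stage 6 replicate 2 (4.19, 0.0582).

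**Figure D3:**
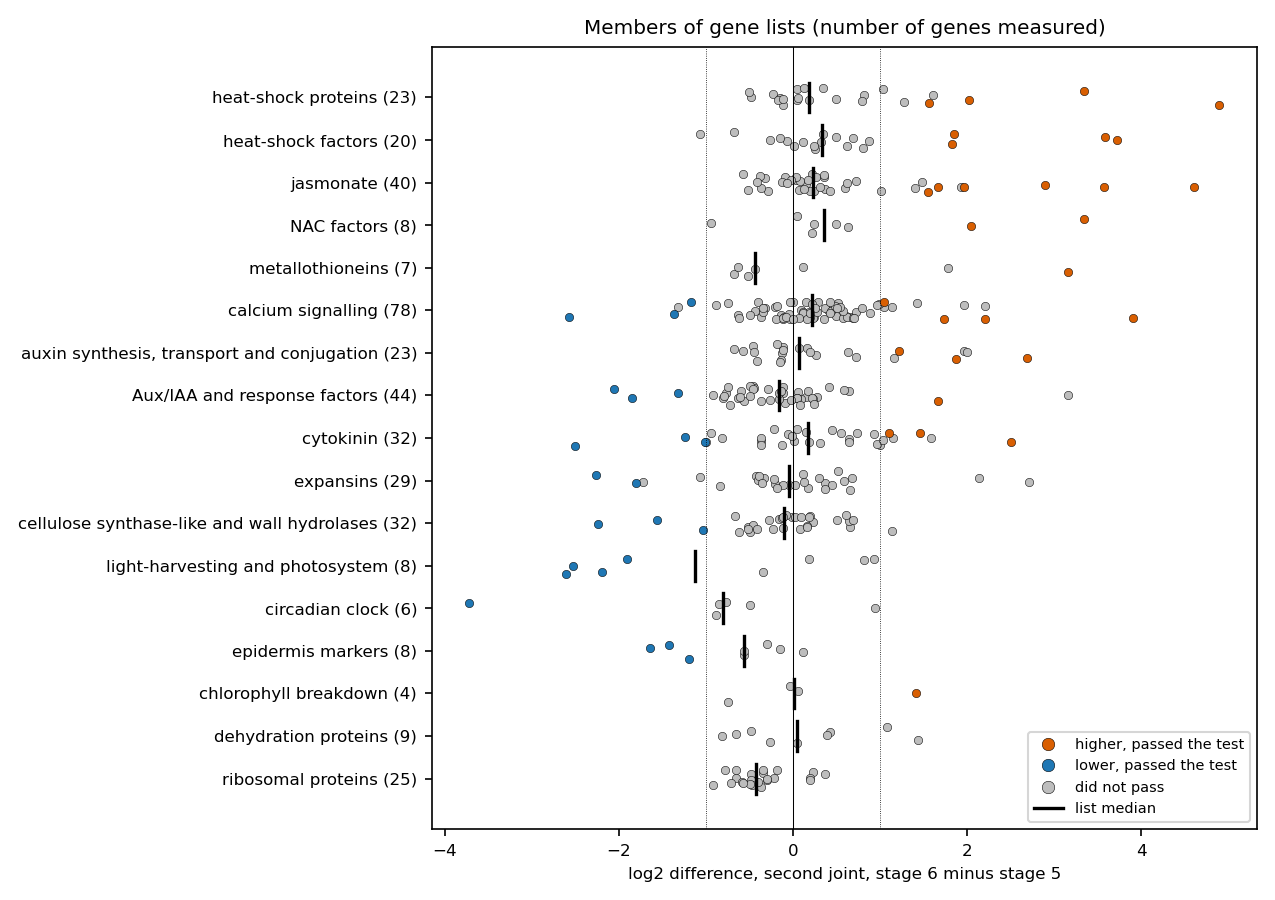
Log2 difference in the second joint, stage 6 minus stage 5 (horizontal axis), for each measured gene of 17 lists (rows, number of genes in brackets); orange genes passed as higher, blue as lower and grey did not pass, vertical bars are list medians and dotted lines mark the 2-fold limit. Passed genes lie on the right for heat-shock and jasmonate genes and on the left for light-harvesting genes, whose median is -1.13.

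Of 8 light-harvesting and photosystem genes 4 fell. Rubisco fixes carbon, and chlorophyll a/b-binding proteins collect light for the photosystems. The Rubisco small subunit gene rbcS read 11.87 and 11.27 at stage 5 and 8.39 and 9.54 at stage 6, a difference of -2.61 (SE 0.429, adjusted p = 0.00343). CAB2R, a chlorophyll a/b-binding protein gene, read 12.80 and 13.24 against 10.54 and 10.45 (-2.53, adjusted p = 0.0291). Stage 5 and stage 6 did not overlap for either gene. The call of rbcS was lost without stage 6 replicate 1 (-2.03, 0.0666), and CAB2R passed in none of the fits without 1 array (0.0569 to 0.146). The 4 that fell were rbcS, CAB2R, LHCP (-2.20) and RCABP69 (-1.91). None rose, and among the 4 that did not pass PSB28 (0.93) and PSAG (0.82), both of photosystem subunits, had positive differences. The list had a median of -1.13 that lay between -1.36 and -1.11 under the 3 scalings. The counts that fell were 1 without stage 5 replicate 1, 2 without stage 5 replicate 2, 0 without stage 6 replicate 1, 2 without stage 6 replicate 2 and 0 with the Gapdh covariate, where the median was -1.13.

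These 8 genes are also the markers of green leaf tissue that a hand-cut joint could carry. Their summed linear signal was 14413 and 17579 at stage 5 and 4005 and 5026 at stage 6, against 55553 and 54696 in the leaf piece. At stage 4 of the same joint the sum was 10644 and 5464, and in the third joint it went from 10648 and 4176 at stage 5 to 14502 and 9377 at stage 6. The share of leaf tissue in the samples was not measured, and its part in the fall was not tested. RBCS1, another Rubisco small subunit gene, was near the bottom of the scale on all 4 arrays, between 2.71 and 2.99.

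PRR95, a pseudo-response regulator of the circadian clock, fell most among the light-linked genes. PRR95 read 11.27 and 11.05 at stage 5 and 7.49 and 7.39 at stage 6, a difference of -3.72 (SE 0.827, adjusted p = 0.0161). The call was lost without stage 5 replicate 1 (0.11), without stage 6 replicate 1 (0.106) and without stage 6 replicate 2 (0.0836), and was kept without stage 5 replicate 2 (0.0182), with differences of -3.83 to -3.61. LIR1, a light-induced chloroplast protein, read 13.49 and 13.54 against 10.50 and 11.79 (-2.37, SE 0.409, adjusted p = 0.00443), a call lost without stage 6 replicate 1 (-1.73, 0.0778). catA, a catalase that removes hydrogen peroxide, read 14.06 and 13.96 against 12.21 and 11.85 (-1.98, 0.0481), and passed in none of the 4 fits without 1 array (0.0606 to 0.23). The stage 5 arrays were the highest for all 3 genes among stages 4, 5 and 6 of this joint: at stage 4 PRR95 had read 7.63 and 7.08, LIR1 10.09 and 10.71, and catA 11.04 and 10.32.

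Of 6 clock genes measured, a list drawn up after values had been seen, PRR95 fell and 5 did not pass, with a median of -0.81. The 4 others with a lower mean at stage 6 were PRR1 (-0.89), PRR37 (-0.85), GI (-0.77) and PRR73 (-0.49). CCA1, a morning gene of the clock, differed the other way (0.94, adjusted p = 0.354), from 6.65 and 7.37 at stage 5 to 8.48 and 7.41 at stage 6. The part of the time of harvest in these differences was not tested. PIP2;7, a water channel of the plasma membrane, had a similar course to LIR1, with 5.88 and 7.32 at stage 4, 10.56 and 10.60 at stage 5 and 6.91 and 8.31 at stage 6. It fell by 2.97 on the log2 scale (SE 0.47, adjusted p = 0.00266), a call lost without stage 6 replicate 1 (-2.27, 0.0558), with array weights (0.0586) and with the Gapdh covariate (-2.75, 0.0523). Among 25 aquaporin genes the silicon channel gene Lsi1 was the other to pass (2.38, 0.0436), a rise lost without stage 5 replicate 1 (1.30, 0.456), without stage 6 replicate 1 (2.62, 0.152) and without stage 6 replicate 2 (2.14, 0.205).

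A few Aux/IAA genes fell and 1 rose. Aux/IAA proteins hold back auxin response factors until auxin leads to their removal. IAA30 read 11.67 and 11.45 at stage 5 and 9.63 and 9.37 at stage 6, a difference of -2.06 (SE 0.328, adjusted p = 0.00279). IAA1 read 13.16 and 13.33 against 12.03 and 11.82 (-1.32, SE 0.223, adjusted p = 0.0039). Both passed without any 1 array, and their groups did not overlap. The list of 44 genes held Aux/IAA genes, auxin response factor genes and SAUR39. Of these 44, 3 fell (IAA30, IAA12 and IAA1), 1 rose (IAA6, 1.66, adjusted p = 0.0245) and 40 did not pass. The median of the whole list was -0.16 and was negative under each scaling. The counts that fell were 3, 5, 3 and 2 without stage 5 replicate 1, stage 5 replicate 2, stage 6 replicate 1 and stage 6 replicate 2, and 1 with the Gapdh covariate.

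Genes that make, carry or conjugate auxin included rises. Of 23 measured, 3 rose and none fell: PIN10a (2.69, adjusted p = 0.0273) and PIN4 (1.22, 0.0121), of the family of auxin efflux carriers, and GH3.6 (1.87, 0.0201), of the family that joins auxin to amino acids. PIN10a read 6.74 and 9.23 at stage 5 and 10.47 and 10.87 at stage 6. None of the 23 passed without stage 5 replicate 1, stage 6 replicate 1 or stage 6 replicate 2, and 6 rose without stage 5 replicate 2. Without stage 5 replicate 1 the difference of PIN10a was 1.44 (0.342). Of 21 brassinosteroid genes none passed, with a median of -0.03 and a range from -1.26 to 1.15.

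Wall and growth genes fell in small number. CSLA1, of the family that makes mannan, read 11.67 and 11.69 at stage 5 and 9.27 and 9.61 at stage 6, a difference of -2.24 (SE 0.305, adjusted p = 0.00117), and passed without any 1 array. EXPA1, an expansin that loosens the wall during growth, read 8.16 and 9.88 against 6.72 and 6.80 (-2.26, SE 0.496, adjusted p = 0.0151). EXPA1 passed without stage 5 replicate 1 (-3.12, 0.00944) but not without stage 5 replicate 2 (-1.40, 0.0625), stage 6 replicate 1 (-2.22, 0.111) or stage 6 replicate 2 (-2.30, 0.072). Of 29 expansin genes, EXPA1 and EXPA7 (-1.80, 0.0222) fell, none rose and the median was -0.05. EXPA7 read 7.93 and 8.15 against 6.36 and 6.13, and 1 of its other probe sets had the opposite sign. Of 32 cellulose synthase-like and wall hydrolase genes, CSLA1, CSLH1 (-1.56, 0.00304) and CSLA5 (-1.03, 0.0298) fell and none rose, while none of 6 primary-wall and none of 4 secondary-wall cellulose genes passed.

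Pi21 fell more than any other named gene. It encodes a proline-rich protein with a metal-binding domain, and loss-of-function alleles give rice partial resistance to blast. It read 10.88 and 10.71 at stage 5 and 6.90 and 7.11 at stage 6, a difference of -3.79 (SE 0.491, adjusted p = 0.000774), with -3.90 to -3.68 when 1 array was left out. Among all probe sets the largest fall was at one that the annotation used here does not name: 13.54 and 13.89 at stage 5 against 5.02 and 5.79 at stage 6, a difference of -8.31 (SE 0.61, adjusted p = 7.79e-06). It also fell in the last joint (-5.66, adjusted p = 0.000552) and the third joint (-9.04, 3.27e-06). The largest rise, also at an unnamed probe set, was from 3.82 and 4.48 to 10.18 and 9.02 (5.46, SE 0.748, adjusted p = 0.0012). Both passed without any 1 of the 4 arrays.

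Cytokinin genes split evenly. Of 32 measured, 3 rose and 3 fell, with a median of 0.17. The rises were the response regulators RR4 (2.50, adjusted p = 0.037) and RR6 (1.46, 0.0335), which dampen cytokinin signalling, and LOGL5 (1.10, 0.0491), of the LOG-like family whose enzymes activate cytokinins. The falls were LOGL10 (-2.50, 0.0114), also of that family, and the phosphotransfer genes HP2 (-1.01, 0.00891) and PHP5 (-1.24, 0.0115). LOGL10 read 8.20 and 7.15 at stage 5 and 4.96 and 5.39 at stage 6. None rose without stage 5 replicate 1, stage 6 replicate 1 or stage 6 replicate 2, and without those arrays 1, 0 and 3 fell.

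Transport and other growth genes had few calls. NRAMP5, a manganese transporter, read 7.34 and 7.27 against 5.35 and 5.86 (-1.69, SE 0.299, adjusted p = 0.00499), and was lost without stage 6 replicate 1 (-1.44, 0.0792). NRAMP5 and the zinc transporter gene ZIP3 (-2.52, 0.0385) fell among 49 nicotianamine and metal transport genes. ZIP3 read 9.79 and 9.92 against 7.24 and 7.43, and passed in none of the fits without 1 array (0.0602 to 0.195). Of 75 genes of cyclins, their kinases and kinesins, 2 rose (KIN14A, 3.08, 0.0323, and KIN14M, 1.22, 0.0158) and 2 fell (CKS1, -2.02, 0.02, and KIN14C, -1.25, 0.017). KIN14A read 4.69 and 7.75 at stage 5, so that its rise rested on stage 5 replicate 1: without that array the difference was 1.55 (0.395).

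Genes of chlorophyll breakdown, autophagy, proteolysis and nitrogen transport passed in small numbers, to be read against the 5.36% of all genes that rose. RCCR1, a reductase of chlorophyll breakdown, rose from 8.20 and 9.02 to 9.61 and 10.42 (1.41, SE 0.239, adjusted p = 0.00405), a call lost without stage 5 replicate 1 (1.0, 0.0581). The other 3 chlorophyll breakdown genes measured did not pass. SGR, the stay-green gene that starts the breakdown, read 12.20 and 11.70 against 11.87 and 12.16 (0.06), NYC1 differed by -0.75 and NOL by -0.04. The joints were white at both stages per the labels. Of 7 autophagy genes 1 rose (APG5, 1.82, 0.0222) and of 20 protease and vacuolar processing genes 1 (CLPD2, 1.0, 0.0242), both lost without stage 5 replicate 1 (1.23, 0.261, and 0.90, 0.175), stage 6 replicate 1 (1.84, 0.129, and 1.22, 0.0697) and stage 6 replicate 2 (1.80, 0.105, and 0.79, 0.182), and none of 20 nitrogen assimilation and transport genes passed.

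Dehydration genes showed no call. None of 9 dehydrin and LEA-type genes passed, with a median of 0.04 and a range from -0.82 to 1.44. RAB21, a dehydrin gene induced by abscisic acid and drought, read 8.33 and 7.62 at stage 5 and 9.53 and 9.30 at stage 6 (1.44, SE 0.883, adjusted p = 0.373), below its stage 4 values of 11.03 and 9.86. Dhn1 was bright on all 4 arrays, 13.64 to 14.35. None of 26 abscisic acid genes, 11 ethylene genes or 6 WRKY genes passed, with medians of 0.06, 0.19 and 0.04. Of 49 lists, 14 had no gene that passed. The ribosomal protein list was among them, with a median of -0.43 over 25 genes and a range from -0.92 to 0.37.

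Other tissues that a cut joint could hold were checked by their markers. Of 8 epidermis markers, 3 fell, among them wsl8 (-1.64, adjusted p = 0.0225) of leaf wax synthesis and the lipid transfer gene LTP (-1.43, 0.00632), and their summed signal was 22899 and 21439 at stage 5 against 8139 and 11735 at stage 6. None of the 8 passed without stage 5 replicate 1 or without stage 6 replicate 1. The summed signal of the 9 KNOX markers of meristem was 12748 and 13263 against 12257 and 12882, and 1 of them, HOS9, rose (1.47, 0.00343), but not without stage 5 replicate 1 (1.11, 0.0524). The 11 panicle MADS markers summed to 593 and 546 against 533 and 534, with MADS1 higher (1.22, 0.00841) and MADS16 lower (-1.10, 0.0019), and the 9 seed storage markers to 398 and 472 against 661 and 635. Over the 3 joints at stages 4 to 6, the KNOX sum ranged from 12177 to 14291, the panicle sum from 491 to 831 and the seed storage sum from 398 to 722. In the leaf piece the KNOX sum was 17554 and 21197, above every joint array. The KNOX sum therefore does not single out meristem, and it cannot show whether the joints held any. MADS1 did not pass without stage 5 replicate 1 (0.81, 0.114) or stage 6 replicate 1 (1.16, 0.0842). The part of changed tissue composition in the falls was not tested.

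Of 13 flowering and vegetative MADS genes MADS56 fell (-1.13, adjusted p = 0.00324), a call lost without stage 6 replicate 1 (-0.96, 0.0616), and 12 did not pass. Of 22 growth-regulating and SPL factor genes SPL2 rose (2.11, 0.0477), GRF1 fell (-1.26, 0.0408) and 20 did not pass. SPL2 and GRF1 did not pass without stage 5 replicate 1 (1.77, 0.307, and -1.27, 0.193), stage 6 replicate 1 (2.38, 0.15, and -1.10, 0.244) or stage 6 replicate 2 (1.85, 0.226, and -1.43, 0.104), nor GRF1 without stage 5 replicate 2 (-1.26, 0.0572). Among the genes chosen as regulators of joint form, LG1 and LA did not pass. LG1 read 7.52 and 8.79 at stage 5 and 9.26 and 9.89 at stage 6 (1.43, SE 0.493, adjusted p = 0.0938), and LA 11.45 and 11.56 against 10.71 and 10.62 (-0.84, SE 0.254, 0.0585), without overlap in either gene. MADS14 (0.23), MADS15 (0.66) and MADS18 (-0.42), of the clade that promotes flowering, and NAS3 (-0.43), a nicotianamine synthase gene, had adjusted p of 0.889, 0.73, 0.512 and 0.73. A p that missed the threshold does not show that these levels were equal.

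The same step in the last and the third joint uses none of the same arrays. In the last joint 80 probe sets passed (0.14%), 40 higher (0.0699%) and 40 lower (0.0699%). In the third joint 589 passed (1.03%), 164 higher (0.286%) and 425 lower (0.742%). Of the 1615 probe sets that rose in the second joint, 91.5% had a positive difference in the last joint, where 50.8% of all tested probe sets did, and 72.3% in the third, where 52.1% of all did. Of the 635 that fell, 88.5% were negative in the last joint (49.2% of all) and 65% in the third (47.9% of all). The differences were smaller there: the rises had a median of 1.5 in the second joint, 0.43 in the last and 0.264 in the third, and the falls had -1.47, -0.525 and -0.406. The second joint medians come from the contrast that chose these probe sets and are no test. The Gapdh difference rose from 1.86 and 2.02 to 3.0 and 3.34 in the third joint, but was already 2.93 and 3.33 at stage 5 of the last joint, against 3.11 and 3.25 at stage 6.

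**Figure D4:**
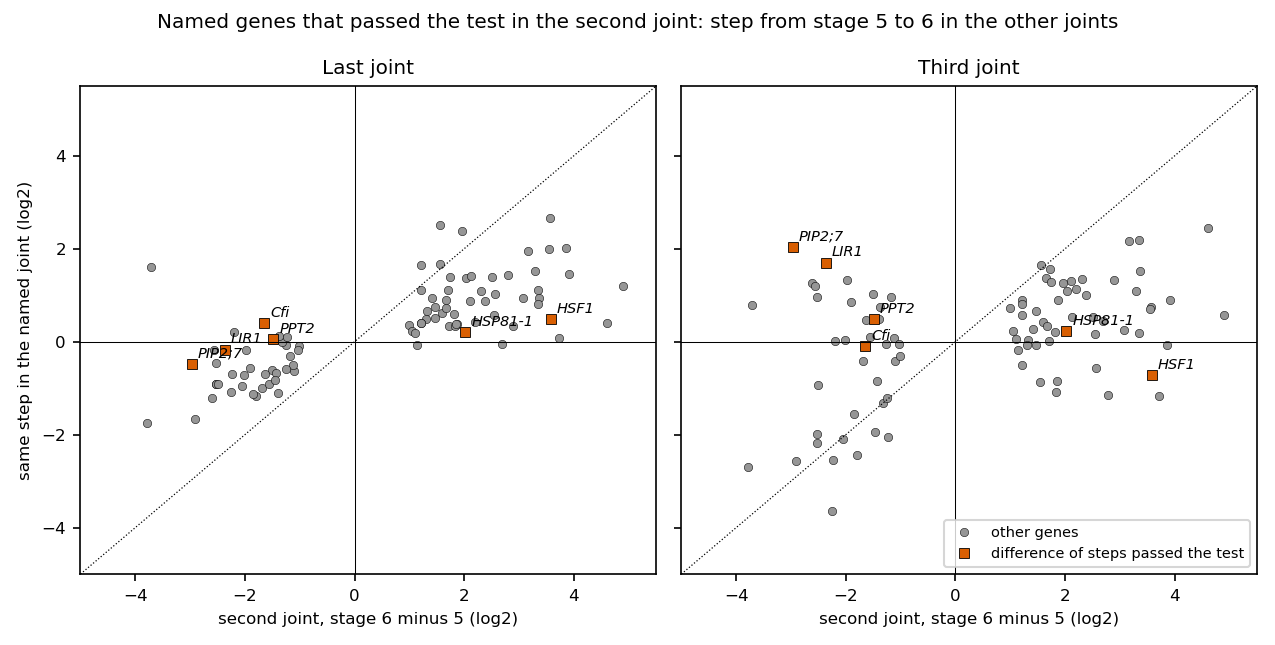
Log2 difference from stage 5 to 6 in the second joint (horizontal axes) against the same step in the last joint (left) and the third joint (right), for the named genes that passed in the second joint; the dotted line marks equal steps, and orange squares passed the test of the difference of steps. HSF1 (3.58 in the second joint) had 0.48 in the last and -0.72 in the third, and PIP2;7 (-2.97) had -0.48 and 2.04.

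The difference of steps was tested in the same fit. The step of the second joint differed from the mean step of the last and the third joint at 78 probe sets (0.136%), 35 more positive (0.0611%) and 43 more negative (0.0751%). Against the last joint alone no probe set passed in limma, with 4621 at an unadjusted p under 0.05, and against the third alone 344 did (0.601%), 184 more positive (0.321%) and 160 more negative (0.279%). These counts rested on single arrays: the 78 became 20 without stage 5 replicate 1, 4465 without stage 5 replicate 2, 2 without stage 6 replicate 1 and 54 without stage 6 replicate 2. Of the named genes, HSF1 and HSP81-1 had a more positive step in the second joint, and PIP2;7, LIR1, Cfi, PPT2 and LP02 a more negative one. Without stage 5 replicate 1 only Cfi and PPT2 of these 7 still passed that test, and neither passed without stage 6 replicate 1. Cfi, a chalcone isomerase gene of flavonoid synthesis, read 9.38 and 10.07 at stage 5 and 8.02 and 8.13 at stage 6. PPT2, a phosphoenolpyruvate translocator of the plastid envelope, read 10.89 and 11.31 against 9.52 and 9.70.

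The difference of steps was computed from the stage 5 arrays of all 3 joints, among others. The stage 5 levels of genes that passed it are therefore a description with no test. At stage 5, HSF1 and HSP81-1 were lower in the second joint than in either other joint, and PIP2;7, LIR1, Cfi and PPT2 were higher, without overlap of arrays. LP02 was not: it read 12.07 and 12.32 there and 12.48 and 12.55 in the last joint. HSF1 lay between 7.22 and 7.77 there, against 9.53 and 9.86 in the last joint and 10.40 and 9.86 in the third at stage 5. PPT2 lay at 10.89 and 11.31, against 10.02 and 10.06 in the last and 9.64 and 9.70 in the third. PPT2 was closer between the joints at stage 6. It read 9.52 and 9.70 in the second, 10.14 and 10.06 in the last and 10.03 and 10.27 in the third. LIR1 and PIP2;7 were not closer to the last joint. The means of LIR1 in the second and last joint were 13.52 and 12.65 at stage 5, then 11.14 and 12.47 at stage 6. Those of PIP2;7 were 10.58 and 9.60, then 7.61 and 9.12. Genes such as Pi21 and MT1B moved the same way in all 3 joints. Pi21 differed by -1.75 in the last (adjusted p = 0.271) and -2.69 in the third (0.0108), and MT1B by 1.95 (0.11) and 2.17 (0.0181).

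**Figure D5:**
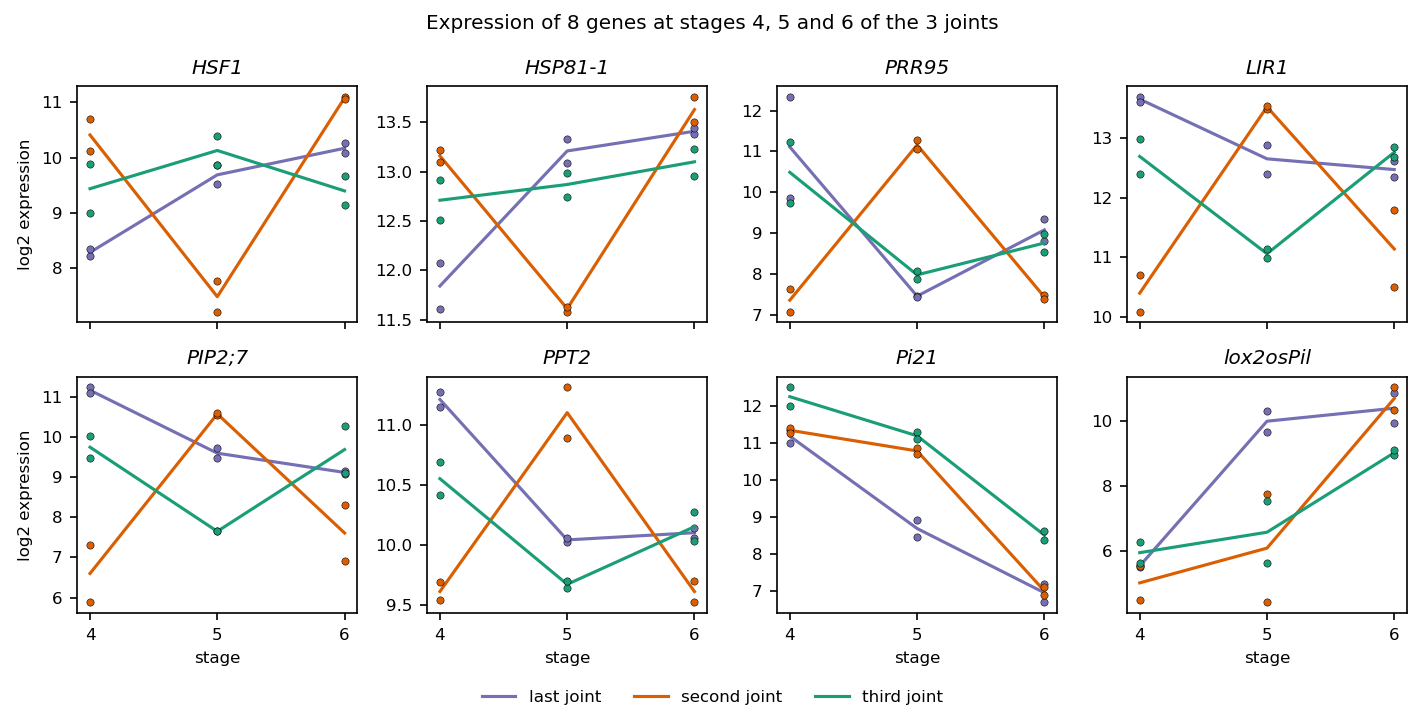
Log2 expression (vertical axes, each with its own range) of 8 genes at stages 4, 5 and 6 in the last (purple), second (orange) and the third (green) joint; points are arrays, 2 per group, and lines join group means. In the second joint HSF1 and HSP81-1 dip at stage 5 and PRR95, LIR1, PIP2;7 and PPT2 peak there, while Pi21 has its lowest mean and lox2osPil its highest mean at stage 6 in each joint.

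The opened but not yet senescent joint of stage 5 is 1 reference, and the unopened joint of stage 4 another. From stage 4 to 6 of the second joint 1686 probe sets passed (2.94%), 635 higher (1.11%) and 1051 lower (1.84%). From stage 4 to 5 there were 739 (1.29%), 219 higher (0.382%) and 520 lower (0.908%). The comparisons share arrays with the step from stage 5 to 6, so the values of single genes are set side by side and no overlap is given. Genes that rose against both references included lox2osPil (4.61 from stage 5, 5.68 from stage 4, adjusted p = 0.000535), LAC24, a laccase (3.55 and 4.66, 0.00415), and NAC45 (2.04 and 2.35, 0.00291). LAC24 read 4.37 and 3.92 at stage 4, 4.70 and 5.81 at stage 5 and 9.71 and 7.90 at stage 6, and its rise from stage 5 was lost without stage 5 replicate 1 (0.193) and without stage 6 replicate 1 (0.217). Genes that fell against both included Pi21 (-3.79 and -4.34, 0.000104), EXPA1 (-2.26 and -4.43, 9.72e-05), IAA30 (-2.06 and -2.92, 9.78e-05) and CSLA1 (-2.24 and -2.65, 0.000119).

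Of the light-linked falls, only some were below stage 4. rbcS was lower at stage 6 than at stage 4 (-2.30, adjusted p = 0.00522), with stage 4 values of 11.42 and 11.10. CAB2R differed by -0.52 from stage 4 (0.837), LIR1 by 0.74 (0.462), PRR95 by 0.08 (0.986) and catA by 1.35 (0.277), none of which passed. The comparison with stage 4 does not use the stage 5 arrays, and its Gapdh values were 1.89 and 2.07 at stage 4 against 3.14 and 3.41 at stage 6. With the Gapdh difference as a covariate 385 probe sets passed from stage 4 to 6, 105 higher and 280 lower.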

How the data were processed

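Expression was measured on 26 Affymetrix rice arrays in 13 groups of 2. The authors deposited 1 log2 value per probe set, made by RMA per the submitters' processing notes, whose version is not given in the sources used here. RMA sets the scale over all arrays together, so differences are relative to the bulk of probe sets. The number of arrays limits the precision. Of 57381 probe sets, 123 Affymetrix controls were left out. Through the platform annotation and RefSeq names, 22436 matched 1 gene, 95 several and 34727 none, and only the first were named (17905 genes, 2449 with a descriptive name). The names can be old.

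Group means were fitted with limma 3.58.1 in R 4.3.3 over all 26 arrays, with 13 residual and 3.52 prior degrees of freedom. Adjusted p-values are Benjamini-Hochberg values over 57258 probe sets, two-sided. A probe set passed at an adjusted p under 0.05 and at least a 2-fold difference. Where 1 array is left out, the lone array of that group is assumed to vary like the other groups. A gene with several probe sets is represented by the one with the highest mean over all arrays. Errors are standard errors of the fitted difference.

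Named genes are the 12 largest rises and 12 largest falls with a descriptive name and no overlap of groups, the 2 most changed passing members of each list, the genes that passed the test of the difference of steps (at most 5 each way) and a short list of senescence, joint and flowering genes. Other genes named were chosen after their values were seen: the set that passed in every fit, and the members of the heat-shock, clock, light-harvesting, jasmonate, auxin, calcium, metallothionein, NAC and dehydration lists. The members and lists were chosen with earlier results of these data known. Scaling, filtering, array weights, a Gapdh covariate, the variance model, the fold limit, the replicate number as a block and arrays left out were tried as alternatives. The fit was tested on simulated data.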

Additional observations from a re-analysis of the deposited data

Results flagged for a closer look

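For 7 named genes the step from stage 5 to 6 in the second joint differed from the mean step of the last and the third joint, by a test of the difference itself in limma with all 26 arrays. The difference of steps was 3.70 for HSF1 (SE 0.658, adjusted p = 0.0373) and 1.80 for HSP81-1 (SE 0.332, 0.0455), both more positive in the second joint. It was -3.76 for PIP2;7 (SE 0.576, 0.0188), -3.14 for LIR1 (SE 0.5, 0.0252), -1.80 for Cfi (SE 0.301, 0.0296), -1.76 for PPT2 (SE 0.235, 0.0125) and -1.17 for LP02 (SE 0.214, 0.0451). Without stage 5 replicate 1 the adjusted p was 0.179 for HSF1, 0.172 for HSP81-1, 0.0778 for PIP2;7, 0.1 for LIR1 and 0.1 for LP02. PIP2;7, LIR1, Cfi, PPT2 and LP02 did not pass without stage 6 replicate 1. Against the last joint alone none of the 7 passed. HSF1 read 9.86 and 9.53 at stage 5 and 10.08 and 10.26 at stage 6 of the last joint, and 10.40 and 9.86 and then 9.67 and 9.14 in the third. PIP2;7 read 9.47 and 9.73 and then 9.16 and 9.08 in the last joint, and 7.65 and 7.65 and then 10.29 and 9.10 in the third, the opposite direction to the second. LIR1 read 10.99 and 11.14 and then 12.68 and 12.85 in the third joint. PRR95 had one of the widest gaps, -4.92, but did not pass (0.0703).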

How the results depend on the processing

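The count of 2250 probe sets from stage 5 to 6 of the second joint ranged from 341 to 6407 when 1 array was left out, and was 466 with array weights, 1066 with the Gapdh covariate, 917 with a test against a fold of 1.2 and 0 with only the 4 arrays. It was 207 for probe sets that passed in the reported fit and without each of the 4 arrays in turn, a rule chosen after seeing the data. The other alternatives were not part of that rule. The 78 differences of steps ranged from 2 to 4465 without 1 array, and were 118 after quantile normalisation, 181 with upper-quartile centring, 8 with array weights, 226 with the Gapdh covariate and 18 against a fold of 1.2. The 1686 from stage 4 to 6 ranged from 621 to 1210 without 1 array, and were 2906 with array weights, 385 with the Gapdh covariate and 1073 against a fold of 1.2. Fits with fewer arrays have fewer degrees of freedom, and the cause of the moves, which went both up and down, was not tested. Of the 78 differences of steps, 44.9% were positive, against 28% after quantile normalisation and 13.8% with upper-quartile centring. Of 92 named genes that passed, 38 passed with the Gapdh covariate, 28 with array weights, 76 with upper-quartile centring and 79 after quantile normalisation, and none changed sign. The labels do not say whether replicate numbers pair these samples. Deviations of same-numbered arrays at stages 5 and 6 correlated at -0.0189, and 1 such value cannot decide it. Over 78 pairs of groups the correlations ran from -0.306 to 0.553, and 24 exceeded 0.1. With the replicate number as a block the counts were 2517, 120 and 1714, and 91 of the 92 genes passed. Promoter motifs were not analysed here.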

Other observations

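Diterpenoid synthesis genes, whose products include the phytoalexins that rice makes against fungi, had a median difference of 0.52 from stage 5 to 6 of the second joint, and none of 15 passed (range -1.20 to 1.75). From stage 4 to 6 of the same joint 6 of the 15 passed as higher. Expansin genes had 2 of 29 lower from stage 5 to 6 and 9 of 29 lower from stage 4 to 6, and in the third joint 7 of 29 were lower from stage 5 to 6. Over all probe sets, 1.11% were higher and 1.84% lower from stage 4 to 6 of the second joint. In the third joint 0.742% were lower from stage 5 to 6. The share per gene was computed only for the step from stage 5 to 6 of the second joint (5.36% higher and 2.19% lower). Among probe sets that rose from stage 5 to 6 in the second joint, stage 5 replicate 2 exceeded replicate 1 by a median of 0.708 (log2), against 0.155 among those that fell and 0.0611 over all probe sets; the rises were chosen from these arrays, so this is a description with no test.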
